A study of Rattus norvegicus with 44 samples.

Results

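The genes described here are 8 members of the liver's drug-handling system, *Cyp2c6v1*, *Cyp2c7*, *Cyp2c11*, *Cyp2b3*, *Ephx1*, *Alas1*, *Por* and *Ugt2b1*, read on rat expression arrays after 5 days of dosing with crude 4-methylcyclohexanemethanol (MCHM). A probe set was taken where the array's annotation gives it to 1 of these genes and to no other gene. That rule found 9 probe sets for the 8 genes, of 31042 probe sets and 14217 named genes in all. They are 1370580_a_at for *Cyp2c6v1*, 1370241_at for *Cyp2c7*, 1387328_at for *Cyp2c11*, 1370475_at for *Cyp2b3*, 1387669_a_at for *Ephx1*, 1367982_at for *Alas1*, 1370698_at for *Ugt2b1*, and 1387109_at and the dimmer 1368213_at for *Por*. The rule that picks the probe sets uses names and not values.

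MCHM is an industrial alcohol mixture used in washing coal. Male Harlan Sprague Dawley rats, 6 to 8 weeks old when assigned to groups, were given it in corn oil by gavage once a day for 5 days, and organs were taken on the following day. Low doses were 0.1, 1 and 10 mg/kg, a middle dose was 100 mg/kg and high doses were 300 and 500 mg/kg, all in 5 mL/kg of oil. The group that received oil alone is called vehicle. The strain, the sex and the oil are shared by all groups, and the labels name no transgene or deletion. Of 27 liver arrays, 3 belong to 0.1 mg/kg and 4 to every other group. Of 17 kidney arrays, vehicle and both high doses have 3 each and the remaining doses 2 each. The labels call the arrays of a group biological replicates. Precision is limited by how few arrays a group has. Values are log2 expression levels, on which a difference of 1 is a change of 2 times, and a level is compared only with the level of the same probe set.

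Cytochrome P450 enzymes oxidise drugs, steroids and other fat-soluble compounds in the endoplasmic reticulum of the hepatocyte. They need heme, whose synthesis begins with the enzyme made from *Alas1*, and electrons, which the reductase made from *Por* passes to them. The products are often handed on to an epoxide hydrolase or joined to glucuronic acid, which makes them easier to excrete. CAR (*Nr1i3*) and PXR (*Nr1i2*) are nuclear receptors of the liver that sense foreign compounds, and genes from each of these steps are known targets of CAR. The growth hormone pattern of the adult animal also sets the level of some rat P450s, so that *Cyp2c11* is known as a male-specific form.

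2 libraries have to be known before the results are read. On the arrays labelled vehicle replicate 2, *Xist*, the noncoding RNA of X inactivation in females, read 11.00 in liver against 2.29 to 3.04 on the other 26 liver arrays, and 9.33 in kidney against 2.21 to 2.59 on the other 16 kidney arrays (probe set 1374684_at). The Y-linked *Eif2s3y* read 9.26 and 10.02 there, with 8.94 to 9.49 on the other livers and 9.35 to 9.94 on the other kidneys. The labels give all animals as male, so the members' liver differences from vehicle at 500 mg/kg are also given without this replicate. In kidney that is done for *Por*, *Cyp2c11*, *Alas1*, *Ephx1* and *Cyp2c7*. The other comparisons with vehicle, the gene lists and the cell type markers included, hold vehicle replicate 2 among the controls unless stated. The other library is the kidney array at 1 mg/kg replicate 1, which read high for liver transcripts. The mean level of 7 hepatocyte markers was 7.21 on it and at most 4.39 on any other kidney array. *Alb*, which encodes the main plasma protein made by hepatocytes, read 12.55 there against 2.67 to 6.24 on the other 16 kidneys. Of 83 probe sets with a liver level over 8 log2 units above the kidney level, 73 (88.0%) had their highest kidney value on this array, against 6.77% of all probe sets. The markers of each labelled organ were present, with mean levels of 13.54 to 13.83 for the hepatocyte list over all livers and 11.75 to 12.29 for 8 proximal tubule markers over all kidneys. That kidney array's mean level of the 8 proximal tubule markers, 12.08, lay within that range.

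To show what lies in front of these genes, 4 stretches of 250 bases that end just before the gene's start are printed, from RefSeq's promoter windows on build GRCr8. They were chosen because *Cyp2c7* and *Cyp2c11* read far higher in liver than in kidney, whereas *Alas1* and *Por* differ less between the organs. *Cyp2c11* is read in kidney too, at 5.14 to 8.44 over the 17 kidneys. Each stretch runs 5′ to 3′ on the gene's own strand. Capitals mark the dinucleotide CG and the letters TATAAA, which were searched on both strands. The stretches lie at chr1:247966144-247966393 (+ strand), chr1:246174966-246175215 (+ strand), chr8:115768643-115768892 (- strand) and chr12:26635810-26636059 (- strand).
Cyp2c7: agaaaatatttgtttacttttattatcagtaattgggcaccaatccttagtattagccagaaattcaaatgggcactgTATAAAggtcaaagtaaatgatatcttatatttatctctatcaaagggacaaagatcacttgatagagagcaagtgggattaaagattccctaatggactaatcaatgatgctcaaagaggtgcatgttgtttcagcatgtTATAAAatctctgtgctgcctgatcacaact
Cyp2c11: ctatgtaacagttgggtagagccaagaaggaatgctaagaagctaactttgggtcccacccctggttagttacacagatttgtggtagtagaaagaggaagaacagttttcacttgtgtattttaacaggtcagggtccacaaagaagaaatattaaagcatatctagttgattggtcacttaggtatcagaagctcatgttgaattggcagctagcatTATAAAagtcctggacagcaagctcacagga
Alas1: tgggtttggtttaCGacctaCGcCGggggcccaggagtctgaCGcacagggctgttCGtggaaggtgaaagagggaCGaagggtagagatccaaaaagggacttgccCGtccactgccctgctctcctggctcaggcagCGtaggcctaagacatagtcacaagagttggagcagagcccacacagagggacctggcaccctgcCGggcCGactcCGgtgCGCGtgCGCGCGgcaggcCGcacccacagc
Por: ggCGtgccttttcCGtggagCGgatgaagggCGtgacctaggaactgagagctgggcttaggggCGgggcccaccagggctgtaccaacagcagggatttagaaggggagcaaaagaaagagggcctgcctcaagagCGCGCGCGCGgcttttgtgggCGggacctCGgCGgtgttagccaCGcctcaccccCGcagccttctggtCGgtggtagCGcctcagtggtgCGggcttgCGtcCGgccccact

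The windows of *Cyp2c7* and *Cyp2c11* hold 0 CG dinucleotides, as do 7.8% of all 33469 windows of this length, and their GC content is 34.0% and 40.8%. In both, TATAAA begins at position -31 from the start, and *Cyp2c7* holds a further match at -172. The letters TATAAA stand in 12.9% of all windows. The window of *Alas1* holds 17 CG dinucleotides at 64.0% GC and that of *Por* holds 20 at 66.0%, with 0 matches to TATAAA in either, and the median over all windows is 5 at 51.2% GC. The remaining windows hold 3 CG for *Cyp2b3*, 4 for *Ugt2b1*, and 6 and 1 for the 2 starts of *Ephx1*, and none of them holds TATAAA. The letters AGGTCA, a core element bound by nuclear receptors, was found on either strand once each in *Cyp2c7* (where it overlaps the TATAAA at -172), *Cyp2c11* and *Por* and at 2 places in the second *Ephx1* window, and it stands in 14.1% of all windows. These matches describe letters only. *Cyp2c6v1* has no window printed.

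In vehicle animals the members split by organ. The liver level was above the kidney level by 10.91 log2 units for *Cyp2c6v1* (SE 0.36), 9.39 for *Cyp2c7* (SE 0.26), 8.69 for *Cyp2b3* (SE 0.16) and 8.20 for *Ugt2b1* (SE 0.22). *Cyp2c11* followed with 6.08 (SE 0.36), *Ephx1* with 2.51 (SE 0.14) and *Alas1* with 1.07 (SE 0.20). The kidney values of the first 4 of these genes, 2.37 to 4.77 in vehicle, lie below the median of all values (5.32). No detection calls were used here, so kidney signal above background is not established for them and their differences are best read as lower bounds, with no order among them. All 8 genes passed the threshold (limma, Benjamini-Hochberg adjusted p from 2.04e-32 to 3.00e-04, 4 liver against 3 kidney arrays), as did 61.4% of all probe sets. For 7 genes all 4 livers lay above all 3 kidneys. *Por* was the exception, with vehicle livers at 8.19, 7.71, 7.90 and 7.85 and vehicle kidneys at 8.51, 8.66 and 8.71. Its kidney level was thus the higher one (liver minus kidney -0.71, SE 0.16, adjusted p = 3.00e-04). The dimmer *Por* probe set, 1368213_at, gave -0.06 (SE 0.20, adjusted p = 0.809), so the pair do not give the same picture. Whether liver and kidney arrays were normalized together is not given in the sources used here. Without vehicle replicate 2 these differences ran from 11.04 for *Cyp2c6v1* to -0.63 for *Por* (adjusted p = 0.00760).

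In liver the 4 P450s moved little with dose, and none of the 8 members passed the threshold at any dose. At 0.1, 1, 10 and 100 mg/kg 0% of all probe sets passed, so the lack of calls there is not particular to the members. Of the members *Cyp2c6v1*, a constitutive P450 that phenobarbital-type inducers raise, came nearest. Its vehicle livers read 13.59, 13.52, 13.52 and 13.35 and those at 500 mg/kg read 13.77, 13.75, 13.76 and 13.72. The groups do not overlap. All 4 livers at 500 mg/kg also lay above the other 23 livers, but only just. The lowest of the 4 and the liver of 10 mg/kg replicate 3 both read 13.72 at the digits printed. The share of all probe sets with that wider pattern is not given here. The lower doses gave 13.52 to 13.65 at 0.1, 13.50 to 13.56 at 1, 13.50 to 13.72 at 10, 13.58 to 13.68 at 100 and 13.51 to 13.65 at 300 mg/kg. The difference at 500 mg/kg was 0.26 (SE 0.07), a ratio of 1.19 with a 95% interval of 1.09 to 1.31 (limma adjusted p = 0.148, unadjusted p = 7.61e-04). In that comparison 0 of 8 members and 0.177% of all probe sets passed (55, of which 37 were higher and 18 lower). Of all probe sets, 3.40% had all 4 livers at 500 mg/kg above all 4 vehicle livers, as 1 of the 8 members did. The slope of *Cyp2c6v1* over the 7 dose levels was 0.035 per level (SE 0.009, adjusted p = 0.0935), where 0.245% of all probe sets passed. Without vehicle replicate 2 the difference at 500 mg/kg stayed at 0.26 (adjusted p = 0.269). Of the alternatives tried, 2 called it. With only the probe sets above the median level tested, its adjusted p was 0.0400, and with a prior variance that follows intensity it was 0.00418, in a range of 0.00418 to 0.452 over all 14 alternatives.

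The other P450s stayed closer to vehicle. *Cyp2c7*, a form known for oxidising retinoic acid, read 13.28, 13.31, 13.21 and 13.12 in vehicle, and 13.44, 13.44, 13.44 and 13.43 at 300 mg/kg. Those groups do not overlap, but the livers at 500 mg/kg (13.43, 13.35, 13.60 and 13.24) fell on both sides of the highest vehicle value. At 100 mg/kg it was lower in level, at 12.75, 13.14, 13.26 and 12.93, so its values do not follow the order of the doses. Its difference from vehicle was -0.21 at 100 mg/kg (SE 0.10, adjusted p = 0.839), 0.21 at 300 mg/kg (SE 0.10, adjusted p = 0.529) and 0.17 at 500 mg/kg (SE 0.10, adjusted p = 0.673). At 300 mg/kg 0.122% of all probe sets passed, and 3.86% had all dosed livers above all vehicle livers. Over the 27 livers *Cyp2c7* ranged from 12.75 to 13.60.

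*Cyp2c11*, which oxidises testosterone and is the main P450 of the adult male rat liver, read 13.59, 13.53, 13.37 and 13.57 in vehicle and 13.79, 13.58, 13.59 and 13.76 at 500 mg/kg. Its groups overlap, and the difference was 0.16 (SE 0.08, 95% interval -0.00 to 0.33, adjusted p = 0.573). As a ratio it was 1.12, with an interval of 0.997 to 1.26. *Cyp2b3*, a 2B form that phenobarbital is known not to induce, had the narrowest range of the 8 members. All 27 livers read between 13.12 and 13.34, and the difference at 500 mg/kg was 0.07 (SE 0.06, 95% interval -0.05 to 0.20, adjusted p = 0.788). In ratio terms its interval runs from 0.965 to 1.15. All 4 P450s read between 12.75 and 13.79 in liver, near the highest value in the table (14.85), where array signals can be compressed. Within-group SDs ran from 0.05 to 0.15 for these genes, and whether the bright signal narrowed them was not tested. With vehicle replicate 2 left out, the differences at 500 mg/kg were 0.20 for *Cyp2c7*, 0.17 for *Cyp2c11* and 0.08 for *Cyp2b3* (adjusted p from 0.692 to 0.828).

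**Figure D1:**
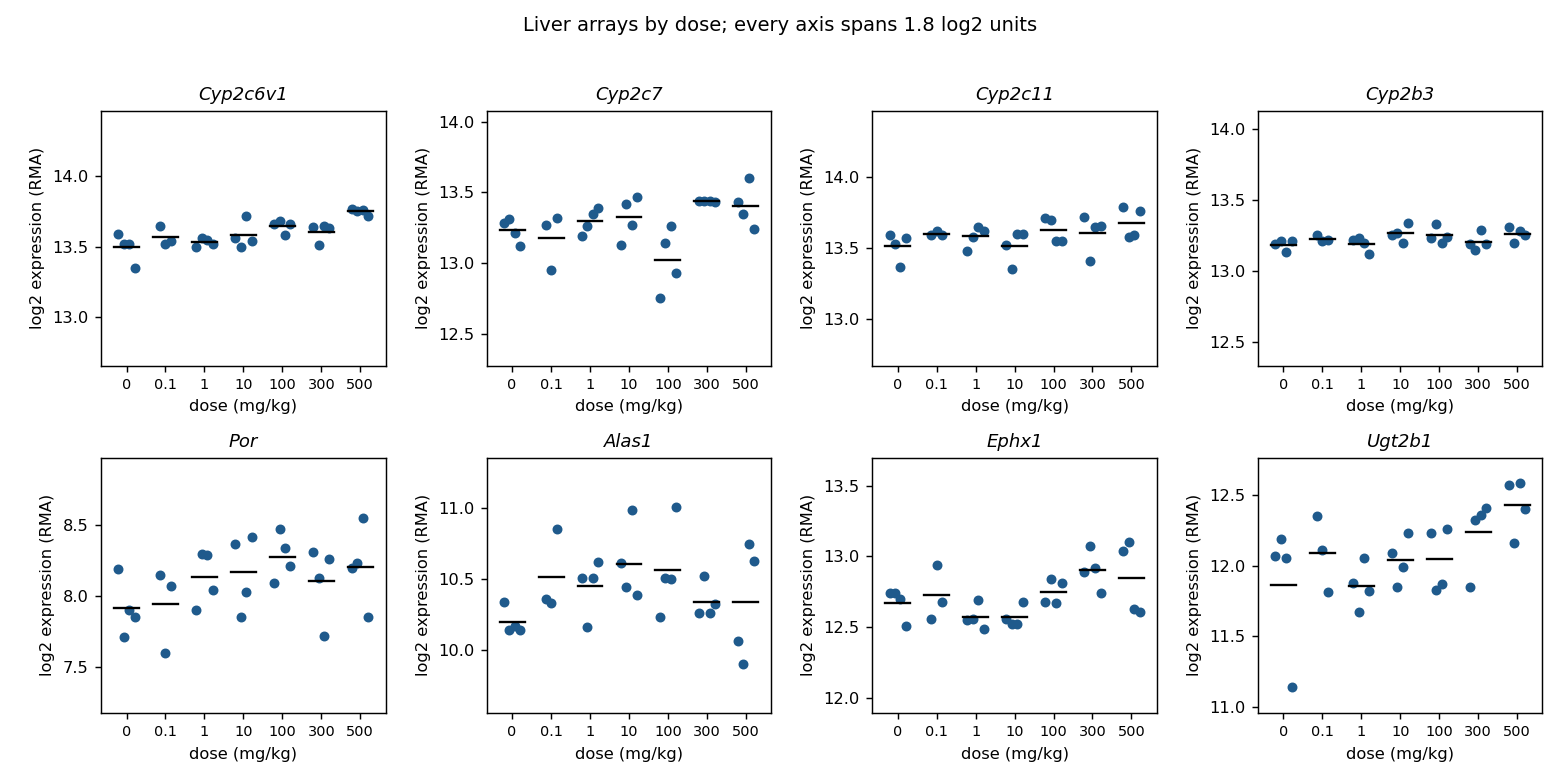
Log2 expression of the 8 genes on each of the 27 liver arrays by dose in mg/kg. Points are arrays in order of replicate number, bars are group means, and every axis spans 1.8 log2 units. *Cyp2c6v1* at 500 mg/kg lies at 13.72 to 13.77, with the other livers reaching 13.72, and a low vehicle array of *Ugt2b1* lies at 11.14.

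*Por* and *Alas1* supply the P450s with electrons and heme. The vehicle livers of *Por* read 8.19, 7.71, 7.90 and 7.85 and those at 500 mg/kg read 8.20, 8.23, 8.55 and 7.85. Vehicle replicate 1 is level with 2 of the dosed livers, so the groups overlap. The difference was 0.30 (SE 0.16, 95% interval -0.04 to 0.63, adjusted p = 0.626), and the dimmer probe set gave 0.29 (SE 0.15, adjusted p = 0.605). *Por* was as far from vehicle at 100 mg/kg (0.36, SE 0.16, adjusted p = 0.781) as at 500 mg/kg. Livers at 300 and 500 mg/kg together differed from those at 0.1, 1 and 10 mg/kg by 0.08 (SE 0.11, adjusted p = 0.842). The difference of *Por* at 500 mg/kg without vehicle replicate 2 was 0.23 (adjusted p = 0.800) and that of *Alas1* 0.12 (adjusted p = 0.928).

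*Alas1* and *Ugt2b1* had the widest spread within liver groups, with an SD of 0.27 each against 0.05 for *Cyp2b3*. The vehicle livers of *Alas1* lay close together, at 10.34, 10.14, 10.17 and 10.14, while those at 500 mg/kg spread over 10.06, 9.90, 10.75 and 10.63. That dose therefore holds the lowest liver of all 27 as well as livers above every vehicle array. The difference at 500 mg/kg was 0.14 (SE 0.18, 95% interval -0.22 to 0.50, adjusted p = 0.875). At 10 mg/kg the livers read 10.61, 10.44, 10.99 and 10.39, all above the vehicle livers (0.41, SE 0.18, adjusted p = 0.871), a pattern that 1.85% of all probe sets showed there. The means at 0.1, 1, 10 and 100 mg/kg, 10.51, 10.45, 10.61 and 10.56, were above that of vehicle, 10.19, and those at 300 and 500 mg/kg were 10.34 each. Accordingly the high doses lay below the low doses, by a difference of -0.18 (SE 0.12, adjusted p = 0.567). *Alas1* is known to follow feeding and heme supply as well as foreign compounds.

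*Ephx1* and *Ugt2b1* act on the products. *Ephx1*, the microsomal epoxide hydrolase, which opens reactive epoxides with water, showed its clearest contrast between high and low doses. Its livers read 12.56, 12.94 and 12.68 at 0.1 mg/kg. Those at 1 mg/kg read 12.55, 12.56, 12.69 and 12.49, and those at 10 mg/kg read 12.56, 12.52, 12.52 and 12.68. At 300 mg/kg they read 12.89, 13.07, 12.92 and 12.74, and at 500 mg/kg 13.04, 13.10, 12.63 and 12.61. The dosed livers at 500 mg/kg thus fall into a high pair and a low pair, and the low pair lies within the vehicle range of 12.51 to 12.74. High minus low doses gave 0.25 (SE 0.07), a ratio of 1.19 with a 95% interval of 1.08 to 1.32 (limma adjusted p = 0.102, where 0 of 8 members and 0.554% of all probe sets passed). With only probe sets above the median level tested the adjusted p was 0.0445, in a range of 0.0445 to 0.186 over 25 alternatives. Against vehicle the difference was 0.23 at 300 mg/kg (SE 0.11, adjusted p = 0.473) and 0.17 at 500 mg/kg (SE 0.11, adjusted p = 0.677). The last of these was 0.20 without vehicle replicate 2 (adjusted p = 0.737). At 300 mg/kg the groups just miss overlapping, as the lowest dosed liver and the highest vehicle liver both read 12.74 at the digits printed. Of all probe sets, 3.86% had all livers at 300 mg/kg above all vehicle livers.

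*Ugt2b1*, a UDP-glucuronosyltransferase of the liver, had the largest difference from vehicle of the 8 members at 500 mg/kg. Its vehicle livers read 12.07, 12.19, 12.05 and 11.14 and those at 500 mg/kg read 12.57, 12.16, 12.58 and 12.40. Vehicle replicate 4 stands 0.91 below its nearest neighbour, and the highest vehicle liver lies above the lowest dosed one. The difference was 0.57 (SE 0.18), a ratio of 1.48 with a 95% interval of 1.15 to 1.91 (adjusted p = 0.277). It was 0.32 without vehicle replicate 4 (adjusted p = 0.567) and 0.68 without vehicle replicate 2 (adjusted p = 0.267), so a single control array moves it by over 1.5 times. The contrast of high with low doses does not use vehicle, and it gave 0.34 (SE 0.12, 95% interval 0.09 to 0.58, adjusted p = 0.217). The slope over dose levels was 0.081 per level (SE 0.024, adjusted p = 0.152).

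Member by member at 500 mg/kg in liver, all 8 genes had a mean above vehicle, with a median difference of 0.17, while over all probe sets the median was 0.00 and 51.2% were above vehicle. The 8 share the same 4 vehicle and 4 dosed arrays, so these are not 8 separate results. At 300 and 500 against 0.1, 1 and 10 mg/kg, 7 of 8 were higher with a median of 0.10. Markers of cell types moved on the same arrays. Of 7 pericentral hepatocyte markers, the zone in which P450s are concentrated, 6 were above vehicle at 500 mg/kg (median 0.25). Their mean levels were 7.83 to 8.27 in vehicle and 8.18 to 8.31 at 500 mg/kg. They did not follow the order of the doses, at 8.11 to 8.32 at 0.1, 8.13 to 8.54 at 1 and 7.88 to 8.25 at 10 mg/kg. At 100 mg/kg they were 8.21 to 8.34 and at 300 mg/kg 7.93 to 8.18. The 7 periportal hepatocyte markers had mean levels of 10.04 to 10.17 in vehicle and 10.06 to 10.16 at 500 mg/kg. All 8 stellate and fibroblast markers were below vehicle at 500 mg/kg (median -0.39), with mean levels of 7.59 to 8.13 in vehicle and 7.19 to 7.61 at 500 mg/kg. The 8.13 belongs to vehicle replicate 2, the array that read *Xist*, and the other vehicle livers were at 7.59, 7.86 and 7.79. Of 7 general hepatocyte markers 2 were above and 5 below (median -0.10). Lists for other cells were mostly below vehicle too, with 0 of 6 lymphocyte, 1 of 7 macrophage, 0 of 5 cholangiocyte and 1 of 5 endothelial markers above it. For the cholangiocyte list vehicle replicate 2 was again highest, at 6.18 against 5.69, 5.72 and 5.57 on the other vehicle livers. The livers at 500 mg/kg were at 5.43 to 5.67. The marker differences were not computed here without that replicate. A single marker passed the threshold, where 0.177% of all probe sets did. It was the immunoglobulin joining chain gene *Jchain* (-0.81, adjusted p = 0.0472, a call kept in 2 of 14 alternatives). The part of all these lists in the members' values was not tested. In whole organs fewer cells of a type and less RNA per cell cannot be told apart.

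**Figure D2:**
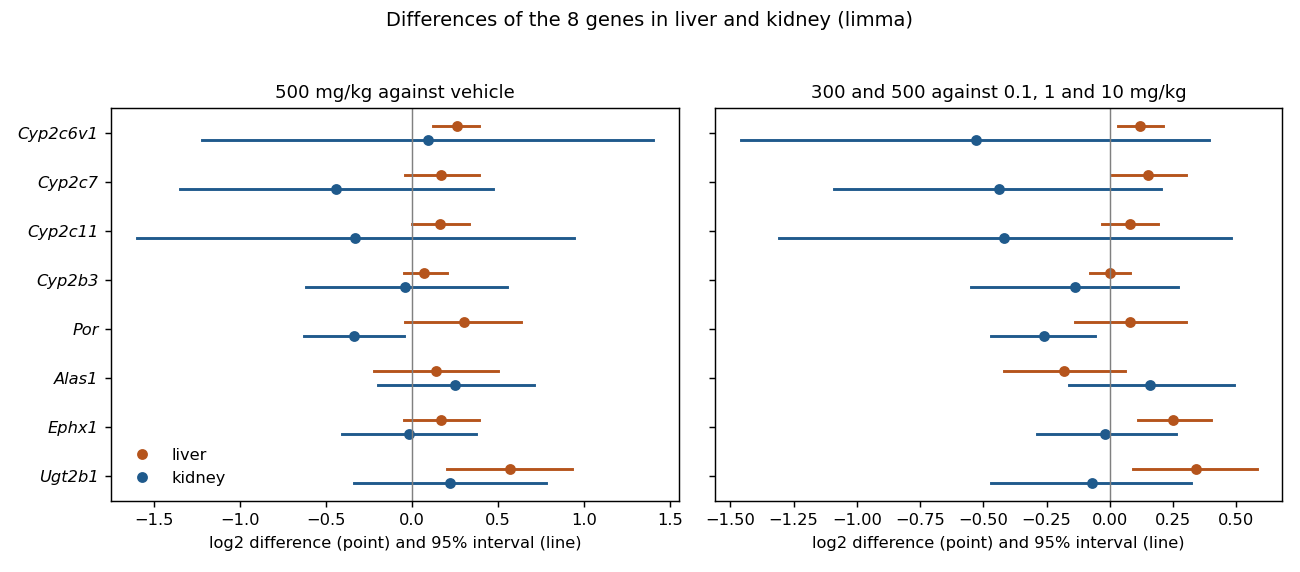
Log2 differences of the 8 genes with 95% intervals from limma, in liver and kidney, at 500 mg/kg against vehicle (left) and at 300 and 500 against 0.1, 1 and 10 mg/kg (right). In liver the interval lies above 0 for *Cyp2c6v1* and *Ugt2b1* on the left and for *Cyp2c6v1*, *Cyp2c7*, *Ephx1* and *Ugt2b1* on the right, with 0 of 8 past the adjusted threshold. In kidney *Por* is the gene whose interval lies below 0 on both sides.

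Some related genes on the same arrays did pass, among them P450s of subfamily 3A. Of 13 measured P450s of subfamilies 2A, 2B, 2C and 3A outside the members, 3 were higher at 500 mg/kg in liver and 0 were lower, all of them 3A forms that PXR is known to drive. At that dose 0.177% of all probe sets passed. The lists were chosen with earlier results of these data known, so their counts are descriptions only. *Cyp3a9* rose by 1.75 (SE 0.32, adjusted p = 0.0224), *Cyp3a23-3a1* by 0.65 (SE 0.13, adjusted p = 0.0306) and *Cyp3a18* by 0.55 (SE 0.11, adjusted p = 0.0291). Without vehicle replicate 2 these calls were lost, at adjusted p = 0.0772, 0.113 and 0.107 with differences of 1.69, 0.62 and 0.51. Over 14 alternatives the calls of *Cyp3a9* and *Cyp3a18* at this dose were each kept in 6 and that of *Cyp3a23-3a1* in 4. Of the 13, 3 rose from low to high doses, *Cyp3a23-3a1* by 0.52 (SE 0.09, adjusted p = 0.00467), *Cyp3a18* by 0.39 (SE 0.07, adjusted p = 0.00886) and *Cyp2c22*, a 2C form, by 0.44 (SE 0.09, adjusted p = 0.0182). In that comparison 0.554% of all probe sets passed. *Cyp2c22* missed the threshold at 500 mg/kg against vehicle (0.60, SE 0.13, adjusted p = 0.0648), and its call between high and low doses was lost without 300 mg/kg replicate 1 (adjusted p = 0.0565).

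Among other genes of the heme pathway and of electron transfer 1 passed at 500 mg/kg in liver, where 0.177% of all probe sets passed. Of 12 measured heme synthesis genes apart from *Alas1*, 0 passed at 500 mg/kg, with 11 above vehicle and a median of 0.08. The 2 with the smallest p between high and low doses were *Cpox*, the coproporphyrinogen oxidase (0.19, SE 0.07, adjusted p = 0.219), and *Ppox*, which acts on its product (0.16, SE 0.08, adjusted p = 0.409). Of 9 genes of heme breakdown and transport 1 passed at 500 mg/kg. This was *Blvrb*, a biliverdin reductase, at 9.94, 10.06, 10.08 and 9.93 in vehicle and 10.62, 10.55, 10.48 and 10.54 at 500 mg/kg, and it rose by 0.55 (SE 0.09, adjusted p = 0.00916, and 0.0263 without vehicle replicate 2). All 5 measured electron transfer genes besides *Por* had means above vehicle (median 0.14) and 0 passed. The cytochrome b5 reductase gene *Cyb5r3* differed by 0.37 (SE 0.10, adjusted p = 0.148) and *Cyb5b* by 0.37 (SE 0.13, adjusted p = 0.355).

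Conjugation genes and the receptors gave few calls. Over all probe sets 0.177% passed at 500 mg/kg in liver and 0.554% between high and low doses. Of 10 measured glucuronidation genes other than *Ugt2b1* 0 passed in liver, with 8 above vehicle at 500 mg/kg and a median of 0.08. *Ugdh*, which makes the activated sugar for these enzymes, differed by 0.22 (SE 0.08, adjusted p = 0.365) and *Ugt2b7* by 0.65 (SE 0.23, adjusted p = 0.367). The vehicle livers of *Ugt2b7* lie below the median of all values (5.32), and signal above background was not established for them. Of 2 other epoxide hydrolases, *Ephx2* and *Ephx4*, 0 passed, with -0.08 (SE 0.10) and -0.05 (SE 0.09) between high and low doses. Of 13 measured nuclear receptors and partners 0 passed, and *Nr1i3* itself differed by 0.26 at 500 mg/kg (SE 0.25, adjusted p = 0.822). In that list *Ppp2ca*, a catalytic subunit of protein phosphatase 2A, which acts on CAR, differed by 0.21 between high and low doses (SE 0.07, adjusted p = 0.174), and *Dnajc7*, a chaperone partner of CAR, by 0.16 (SE 0.06, adjusted p = 0.197). Among 19 other known targets of CAR and PXR 1 passed at 500 mg/kg, the carboxylesterase *Ces2c*, which rose by 0.85 (SE 0.17, adjusted p = 0.0306, and 0.128 without vehicle replicate 2). Of those 19, 2 rose from low to high doses, *Thrsp*, a regulator of fat synthesis, by 1.37 (SE 0.17, adjusted p = 3.01e-04), and *Gsta3*, a glutathione transferase, by 1.27 (SE 0.22, adjusted p = 0.00565), and both calls were kept in 25 of 25 alternatives. In the list of 23 sex-biased and growth hormone genes, 10 were above and 13 below vehicle at 500 mg/kg and 0 passed. The prolactin receptor gene *Prlr* came nearest between high and low doses (0.87, SE 0.24, adjusted p = 0.0892), followed by *Sult1e1*, an estrogen sulfotransferase (0.17, SE 0.06, adjusted p = 0.229).

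In kidney the 4 genes *Cyp2c6v1*, *Cyp2c7*, *Cyp2b3* and *Ugt2b1* read low, and the 1 mg/kg array with the hepatocyte transcripts stood out. *Cyp2c6v1* read 2.37, 2.87 and 2.52 in vehicle, 2.49, 2.77 and 2.77 at 500 mg/kg. The pair at 1 mg/kg read 6.41 and 2.53. Apart from that array the other 16 kidneys stayed between 2.37 and 2.87. *Cyp2c7* read 6.11 on it against 3.09 to 4.03, *Cyp2b3* 5.89 against 4.20 to 4.84 and *Ugt2b1* 4.77 against 3.18 to 4.21. On the linear scale the excess of that array over the other kidneys' median was 0.649% of the liver median for *Cyp2c6v1*, 0.577% for *Cyp2c7*, 0.383% for *Cyp2b3* and 0.329% for *Ugt2b1*. It was larger for *Cyp2c11* (1.22%), which read 8.44 there against 5.14 to 8.10. Among the markers it ran from 0.0642% for *Hamp* to 20.6% for *Alb*, so the genes give no common share. Of the 7 hepatocyte markers 6 were above all other kidneys there, among them *Ttr* (9.32 against at most 5.76) and *Cps1* (6.20 against at most 3.24), and *Hamp* was within their range. *Ephx1* (10.08) and *Alas1* (9.25), whose levels in the organs differ less, lay within the range of the other kidneys. *Por*, which reads higher in kidney than in liver, was at 8.82 there, just above the other kidneys (at most 8.78).

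**Figure D3:**
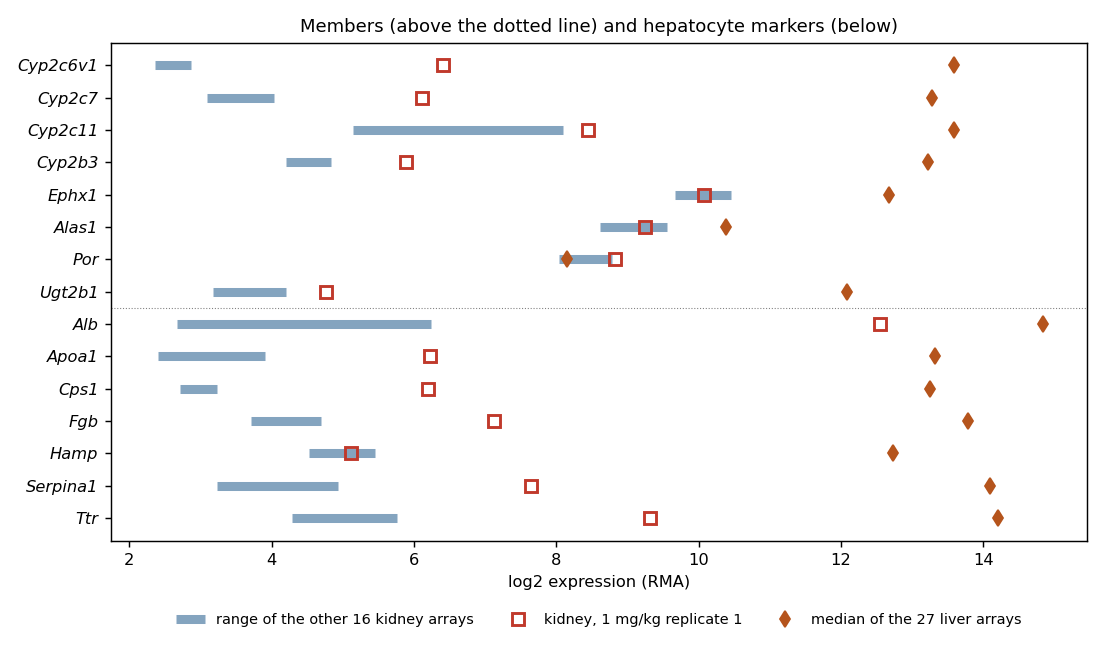
Log2 expression on the kidney array at 1 mg/kg replicate 1 (squares), the range of the other 16 kidney arrays (bars) and the median of the 27 livers (diamonds) for the 8 members and 7 hepatocyte markers. *Cyp2c6v1* (6.41) and *Alb* (12.55) stand above the bars, *Ephx1* and *Alas1* within them.

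That array sets the spread of these genes in kidney. The within-group SD of *Cyp2c6v1* was 0.88 with all 17 kidneys and 0.16 with the other 16, and for *Cyp2c7* it was 0.61 and 0.31. No member passed at 1 mg/kg with both arrays (*Cyp2c6v1* 1.88, SE 0.68, adjusted p = 0.672), where 0% of all probe sets passed (2168 at an unadjusted p under 0.05). Each of these 2 arrays was also left out, which leaves 1 array at that dose, so only the differences are given. Without replicate 1 the difference of *Cyp2c6v1* was -0.05. With replicate 1 as the only array at that dose, the difference was 3.82 for *Cyp2c6v1*, 2.27 for *Cyp2c7* and 1.40 for *Cyp2b3*. Between high and low kidney doses *Cyp2c6v1* differed by -0.53 with all arrays (SE 0.43), by 0.11 without replicate 1 and by -1.18 without replicate 2. The kidney differences of *Cyp2c6v1* thus turn on which of the 2 arrays is used.

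At 500 mg/kg in kidney 0 of 8 members and 0% of all probe sets passed (limma, 3131 at an unadjusted p under 0.05). Without kidney vehicle replicate 1, 616 probe sets passed and still 0 members. *Por* came nearest. It read 8.51, 8.66 and 8.71 in vehicle, 8.33, 8.78 and 8.53 at 300 mg/kg, while kidneys of the highest dose read 8.55, 8.26 and 8.04. Of the 3 kidneys at 500 mg/kg replicate 1 lies above the lowest vehicle kidney, and so do 2 of the 3 at 300 mg/kg. The difference was -0.34 (SE 0.13, 95% interval -0.63 to -0.05, adjusted p = 0.414), a ratio of 0.788 with an interval of 0.645 to 0.963. The dimmer probe set gave -0.24 (SE 0.24, adjusted p = 0.781), with 6.09, 6.09 and 6.24 in vehicle and 6.04, 5.89 and 5.77 at 500 mg/kg and no overlap, as 8.81% of all probe sets showed in that direction. High minus low doses gave -0.26 for *Por* (SE 0.10, adjusted p = 0.535), where 0% of all probe sets passed (2551 at an unadjusted p under 0.05). Marker lists moved on the same kidneys, with 0 markers past the threshold. All 8 proximal tubule markers were below vehicle at 500 mg/kg (median -0.28), with mean levels of 12.12 to 12.27 in vehicle and 11.75 to 12.13 at 500 mg/kg. All 5 endothelial markers were below it (7.03 to 7.37 and 6.83 to 6.99), as were 6 of 7 macrophage markers (6.14 to 6.28 and 5.79 to 6.09) and 5 of 6 lymphocyte markers (4.76 to 4.80 and 4.55 to 4.68). Of 7 markers of the thick limb, distal tubule and collecting duct 4 were above it (9.97 to 10.17 and 10.13 to 10.36). The mean level of 7 fat markers varied far more within these groups. By replicate it was 5.08, 6.76 and 7.07 in vehicle and 5.85, 7.60 and 5.12 at 500 mg/kg. The part of these lists in the level of *Por* was not tested. *Por* differed by -0.33 without vehicle replicate 2 (adjusted p = 0.891).

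*Cyp2c11* was the member that varied most among ordinary kidneys. Vehicle kidneys read 7.64, 6.91 and 7.75, those at 10 mg/kg 6.63 and 5.14, those at 300 mg/kg 7.65, 5.20 and 6.44, and those at 500 mg/kg 5.97, 7.77 and 7.59. Both kidneys at 10 mg/kg lay below all vehicle kidneys, as 9.13% of all probe sets did there. At 300 and 500 mg/kg low values stand beside values at the vehicle level, and its within-group SD was 0.86. Its difference was -1.55 at 10 mg/kg (SE 0.66, adjusted p = 0.993), -1.0 at 300 mg/kg (SE 0.59, adjusted p = 0.999) and -0.33 at 500 mg/kg (SE 0.59, 95% interval -1.60 to 0.94, adjusted p = 0.895). Without 500 mg/kg replicate 1 the last of these turned to 0.24. *Alas1* in kidney read 9.01, 8.96 and 9.40 in vehicle and 9.16, 9.55 and 9.43 at 500 mg/kg (0.25, SE 0.21, adjusted p = 0.729). *Ephx1* read 10.30, 10.01 and 10.18, and 10.39, 9.89 and 10.15 (-0.02, SE 0.18, 95% interval -0.41 to 0.37, adjusted p = 0.983). *Cyp2c7* read 4.03, 3.56 and 3.92 in vehicle and 3.55, 3.54 and 3.09 at 500 mg/kg (-0.44, SE 0.42, adjusted p = 0.767, and adjusted p = 0.543 without 1 mg/kg replicate 1). These groups do not overlap, as 8.81% of all probe sets showed in that direction, and the signal is low and not established above background. Without vehicle replicate 2 the differences at 500 mg/kg were -0.59 for *Cyp2c11*, 0.17 for *Alas1*, -0.10 for *Ephx1* and -0.58 for *Cyp2c7* (adjusted p from 0.933 to 0.977).

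**Figure D4:**
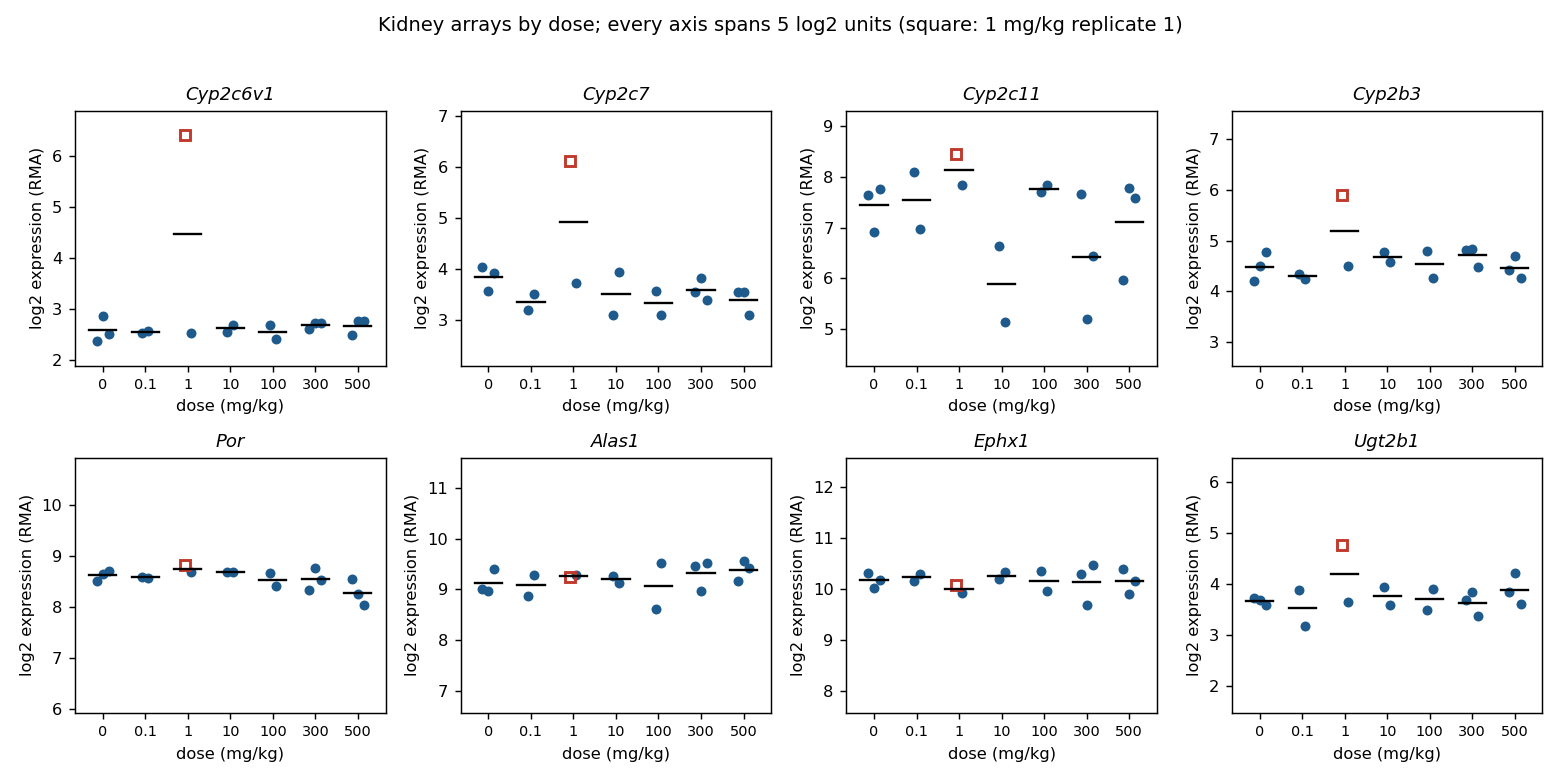
Log2 expression of the 8 genes on each of the 17 kidney arrays by dose in mg/kg. Points are arrays, bars are group means, every axis spans 5 log2 units, and the open square is 1 mg/kg replicate 1. The square stands alone for *Cyp2c6v1* (6.41) and *Cyp2c7* (6.11), and *Cyp2c11* is scattered from 5.14 to 8.44.

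The related gene lists gave 0 calls in any dose comparison of the kidney, where 0% of all probe sets passed. The gene with the widest contrast among those named there was *Ugt2b7*, which read 7.58, 8.43 and 8.21 in vehicle, 7.52, 4.89 and 6.70 at 300 mg/kg, while kidneys of the highest dose read 7.0, 6.34 and 6.74. All kidneys at 500 mg/kg lay below all vehicle kidneys, as 8.81% of all probe sets did there, and the difference was -1.38 (SE 0.66, adjusted p = 0.506). In liver the same probe set read 4.18 to 4.60 in vehicle and 4.70 to 5.44 at 500 mg/kg.

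The change at 500 mg/kg was compared between organs in a fit of all 44 arrays, in which 0 of 8 members and 0.0290% of all probe sets passed. The liver change minus the kidney change was 0.64 for *Por* (SE 0.23, 95% interval 0.17 to 1.11, adjusted p = 0.272), 0.62 for *Cyp2c7* (SE 0.37, adjusted p = 0.623), 0.35 for *Ugt2b1* (SE 0.31, adjusted p = 0.799) and 0.17 for *Cyp2c6v1* (SE 0.51, adjusted p = 0.960). Without the kidney array at 1 mg/kg replicate 1 the values of *Cyp2c6v1* and *Cyp2c7* kept their size with an SE of 0.13 and 0.22, and 0 of 8 members passed. For *Cyp2c6v1*, *Cyp2c7* and *Ugt2b1* the kidney change in this difference comes from the low signals described above, and signal above background was not established there. Leaving out vehicle replicate 2 gave 0.56 for *Por*, 0.78 for *Cyp2c7*, 0.45 for *Ugt2b1* and 0.03 for *Cyp2c6v1* (adjusted p from 0.739 to 0.998). The labels do not say whether liver and kidney arrays come from the same animals, so animals were not used as a block.

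Among themselves the members did not vary as a unit across the 27 livers. Of 28 pairs 24 had a positive Pearson r and 2 exceeded 0.5, with a median of 0.20. The highest was *Cyp2c6v1* with *Ugt2b1* (r = 0.67), followed by *Cyp2c6v1* with *Cyp2c11* (r = 0.55). Which pair comes first depends on the measure. For deviations from the dose means it was *Cyp2c7* with *Por* (0.48), followed by *Cyp2c6v1* with *Ugt2b1* (0.46), and without the 2 arrays farthest from the median it was *Cyp2c6v1* with *Cyp2c11* (0.56). The lowest was *Ephx1* with *Alas1* (r = -0.37). Over all arrays *Alas1* reached at most 0.18 with any other member. These are descriptions over arrays that share dose groups, hybridisation and normalization.

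**Figure D5:**
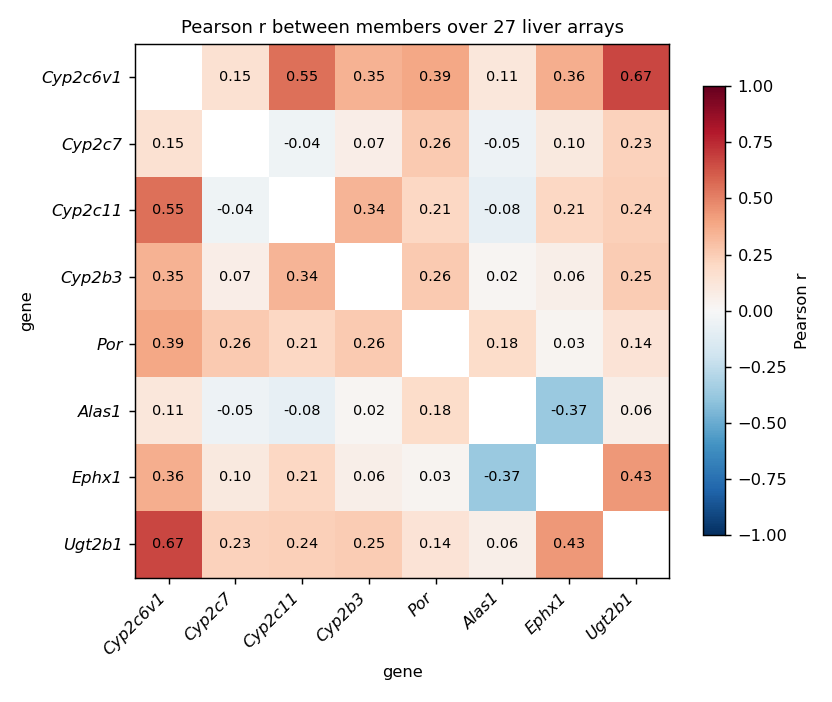
Pearson r between each pair of the 8 genes over the 27 liver arrays, with blue below 0 and red above 0. The strongest pair is *Cyp2c6v1* with *Ugt2b1* (0.67), and *Alas1* and *Ephx1* form the lowest (-0.37).

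The 2 genes whose liver pattern was most like each member were taken by Pearson r over the 27 arrays. *Cyp2c6v1* lay nearest to *Prdx5*, a peroxiredoxin (0.81), and *Suclg1*, a subunit of succinyl-CoA ligase (0.80). *Cyp2c7* lay nearest to the aldo-keto reductases *AKR1C3l1* (0.83) and *Akr1c1* (0.81), and *Cyp2c11* to *Cyp3a9* (0.73) and *Cd164* (0.70). For *Ephx1* they were the transporter gene *Slc17a3* (0.78) and *Akr7a3*, an aflatoxin aldehyde reductase (0.77), and for *Ugt2b1* they were *Ugt2a1*, of the same family (0.79), and *Pon3* (0.74). *Alas1* was paired with *Naa16* (0.78) and *Ythdf1* (0.76), *Cyp2b3* with *Eif5a* (0.68) and *Oplah* (0.68), and *Por* with *Mtarc1* (0.63) and *Mettl22* (0.61). Within dose groups the likeness of *Cyp2c7* to *AKR1C3l1* was 0.82 and that of *Ugt2b1* to *Ugt2a1* was 0.81, whereas that of *Cyp2c6v1* to *Suclg1* was 0.45. Probe sets of close family members can share sequence, and that was not tested here.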

How the data were processed

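Total RNA of each sample was hybridised to an Affymetrix rat array. The authors deposited log2 values made with RMA, per the submitters' processing notes. RMA fits background, equalises the arrays' distributions and summarises probes, which hides any change shared by nearly all transcripts and compresses dim probe sets. Its version is not given in the sources used here. No pair of arrays holds identical values. Of 31099 probe sets 57 controls were left out, and 31042 were tested. Gene names come from the platform annotation, updated by gene ID through a GRCr8 table (20758 of 20826 probe sets with 1 symbol matched).

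Each organ's 7 groups were fitted together with limma 3.58.1 (R 4.3.3, lmFit and eBayes, two-sided), with Benjamini-Hochberg adjustment over all 31042 probe sets and a threshold of 0.05. High doses are 300 and 500 mg/kg and low doses 0.1, 1 and 10 mg/kg, and the slope runs over dose levels 0 to 6. The organs were compared in 1 fit of all 44 arrays. The fits were tested on simulated data. Scanner files were not used here.

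Where a gene has several probe sets, the brightest in the organ stands for it. Named are the 8 members with all their probe sets, from each related list the genes past the threshold or else the 2 with the smallest p between high and low doses, and for each member the 2 genes with the highest Pearson r. *Nr1i3*, *Ttr*, *Cps1*, *Hamp* and *Alb* are named as the receptor and as markers, and *Jchain* as the marker that passed. The members and lists were chosen with earlier results of these data known. Alternatives were a filter at the median level, a second quantile normalization, the compared groups alone, another dose scale, an intensity-trended prior, the replicate number as a block and each array left out. Leaving the kidney array at 1 mg/kg replicate 1 out of comparisons it does not enter was added after seeing the data. Some genes are not reported here.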

Additional observations from a re-analysis of the deposited data

Results flagged for a closer look

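In the liver groups of 4 arrays, 5 of the 54 groups tested across members and probe sets held an array far from the other 3, by the ratio of its gap from the nearest array to the whole range of the group. Chance gives about 1 in 20 such groups. *Ugt2b1* in vehicle had its lowest array, replicate 4, at 11.14 against 12.05 to 12.19 (ratio 0.865). *Ugt2b1* at 300 mg/kg had replicate 1 at 11.85 against 12.32 to 12.41 (ratio 0.848). *Cyp2c6v1* at 300 mg/kg had replicate 2 at 13.51 against 13.63 to 13.65 (ratio 0.842). *Alas1* in vehicle had its highest array, replicate 1, at 10.34 against 10.14 to 10.17 (ratio 0.835). *Ephx1* in vehicle had its lowest array, replicate 4, at 12.51 against 12.70 to 12.74 (ratio 0.830). Vehicle replicate 4 is thus the low array for both *Ugt2b1* and *Ephx1*, and it was also the lowest of all 27 livers for *Cyp2c6v1* (13.35).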

How the results depend on the processing

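The count of members past the threshold was 0 in every dose comparison as reported, and these settings gave another count. With only the probe sets above the median level tested, and with the intensity-trended robust prior, 1 member passed in liver at 500 mg/kg, 1 between high and low doses and 1 in the trend. Between high and low doses the settings called different genes. The filter called *Ephx1* (limma adjusted p = 0.0445) and the prior *Cyp2c6v1* (limma adjusted p = 0.036). As reported that contrast of *Cyp2c6v1* was 0.12 (SE 0.04, adjusted p = 0.227). Leaving out single arrays gave another count only in kidney, at the lower doses and between high and low doses, and 0 members in the other dose comparisons. Both changes came from leaving out 1 mg/kg replicate 2, which leaves 1 array at that dose, so their counts are not given. The 8 differences between organs in vehicle kept their direction and stayed past the threshold. A second quantile normalization turned *Cyp2b3* between high and low liver doses to -0.01. Leaving out single arrays moved that value over -0.01 to 0.01. In kidney at 500 mg/kg it moved *Cyp2c6v1* over -0.02 to 0.23, *Cyp2c11* over -0.66 to 0.24, *Cyp2b3* over -0.18 to 0.11 and *Ephx1* over -0.14 to 0.11. In the organ difference at 500 mg/kg it moved *Cyp2c11* over -0.08 to 0.82, *Cyp2b3* over -0.03 to 0.25 and *Alas1* over -0.25 to 0.03. The cause was not tested. Same-numbered arrays did not deviate together (mean r of 0.00 to 0.05 in liver and -0.06 to 0.02 in kidney), and with the replicate number as a block 0 members passed in any dose comparison, with *Cyp2c6v1* at adjusted p = 0.156 for 500 mg/kg in liver. Over all probe sets, the 55 calls in liver at 500 mg/kg became 104 above the median level, 136 with the trended prior, 1 with the 2 groups alone and 14 without vehicle replicate 2. The 38 at 300 mg/kg became 139, 84, 2 and 0, with 16 after the second normalization and 60 with the block. The 172 between high and low doses became 456, 356, 129 and 140, and the 76 of the trend became 211 and 167, 45 without vehicle replicate 2, 50 with the block and 121 over log10 of dose + 1. Leaving out single arrays gave 9 (without vehicle replicate 3) to 84 (without vehicle replicate 1) at 500 mg/kg, 0 (without vehicle replicate 2) to 22 at 300 mg/kg, 66 (without 300 mg/kg replicate 1; 67 without 500 mg/kg replicate 4) to 171 between high and low doses, and 12 (without 500 mg/kg replicate 4; 30 without replicate 3) to 91 in the trend. The second normalization moved the share of higher calls in the trend from 68.4% to 56.1%, at 500 mg/kg from 67.3% to 56.9% and at 300 mg/kg from 86.8% to 75.0%. The 9 calls of the organ difference became 70, 26, 2, 0 without vehicle replicate 2 and 746 without kidney vehicle replicate 1.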
